A study of Mus musculus with 78 samples.

Results

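The histone deacetylase genes described here are Hdac1, Hdac2, Hdac3, Hdac4, Hdac5, Hdac6, Hdac7, Hdac8, Hdac9 and Hdac11, chosen by name, with every array probe that the platform annotation assigns to them. Of these 10 genes 9 had a probe, with 20 probes among the 45281 on the array, and no probe was annotated to Hdac1, which is not analysed here. The signals come from 78 Illumina bead arrays of striatum from C57BL/6J mice. Mice were injected intraperitoneally with saline, heroin or methamphetamine, 2 times a day for 12 days, with doses growing from 10 to 40 mg/kg for heroin and from 2 to 8 mg/kg for methamphetamine. Striatum was taken on day 1, 3, 6 or 12 of the injections, here called treatment, or on days labelled 13, 15, 18 and 24, here called withdrawal. That makes 24 groups of 3 arrays, or 12 arrays for each drug and phase, and there were also 6 naive arrays. The withdrawal days are given as in the sample labels, while the headers of the signal table number the same groups as days 1, 3, 6 and 12 of withdrawal. No label says whether the arrays of a group came from separate mice, so p-values measure the spread between arrays, which may in part be technical.

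Histone deacetylases remove acetyl groups from lysines of histones and other proteins, and histone acetylation is generally associated with open chromatin and active transcription. Class I members (Hdac1, Hdac2, Hdac3 and Hdac8) are mostly nuclear, and all but Hdac8 act inside corepressor complexes such as Sin3, NuRD, CoREST and NCoR. Class IIa members (Hdac4, Hdac5, Hdac7 and Hdac9) have little catalytic activity of their own, bind MEF2 transcription factors, and leave the nucleus when kinases such as CaMK phosphorylate them and 14-3-3 proteins hold them in the cytoplasm. Hdac6 is a cytoplasmic class IIb enzyme that deacetylates tubulin, and Hdac11 is the only class IV member. Hdac5 in the striatum has been studied for its part in responses to drugs of abuse, where its nuclear export as well as its amount matters, and an array of mRNA shows only the amount of transcript.

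Hdac5 is the member with a probe past the threshold of the genome-wide test, so the sequence around its annotated start is printed, to show which motifs of regulators linked to neuronal activity stand there. The window is chr11:102230143-102230422 of GRCm38.p6, on the minus strand, and holds 250 bases before the annotated transcript start and 30 bases from it, taken from RefSeq. Capitals mark a MEF2 consensus before the start and, after it, an E-box and a TGACGT, which do not overlap each other.
Hdac5: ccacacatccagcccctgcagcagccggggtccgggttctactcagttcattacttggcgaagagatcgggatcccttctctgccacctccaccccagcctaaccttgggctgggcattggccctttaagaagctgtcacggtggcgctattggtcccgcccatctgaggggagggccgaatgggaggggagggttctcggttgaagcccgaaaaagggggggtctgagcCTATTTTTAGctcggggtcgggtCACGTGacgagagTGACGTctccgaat
The E-box was searched as CACGTG, the first bases of the cyclic AMP response element as TGACGT and the MEF2 consensus by its usual degenerate form, each on both strands, and these 3 motifs were chosen after the sequence had been seen. Among 32851 mouse windows of this length, 6.79% held CACGTG, 7.26% held TGACGT and 3.07% the MEF2 consensus. Windows were found for 8 members, 12 in all, and outside Hdac5 none held any of these motifs. Since the motifs were chosen with the Hdac5 window in view, this does not set Hdac5 apart from the other members. A match is a description of letters and no evidence that a factor binds there.

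All levels below are log2 of quantile-normalized signal, so a difference of 1 is a doubling, and a probe's level cannot be set against another probe's. Each gene's brightest probe is called its leading probe. Of the 20 probes, 12 were brighter than their array's median probe on all 78 arrays, and 4 were below it on every array: 1 probe of Hdac3, 1 of Hdac4 and 2 of Hdac9. Each of the 9 genes had a leading probe above the median throughout. Before normalization the median signal of an array lay between 95.1 and 184, and the number of arrays limits the precision of every comparison.

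Among the class I members, the leading probe of Hdac2 (ILMN_2640441) lay between 11.89 and 12.43 over the 78 arrays, that of Hdac3 (ILMN_1220353) between 11.12 and 11.65, and that of Hdac8 (ILMN_2871174) between 7.61 and 8.21. Among the class IIa members, the ranges were 9.31 to 10.32 for Hdac4 (ILMN_1219682), 11.72 to 12.34 for Hdac5 (ILMN_3112922), 8.13 to 9.18 for Hdac7 (ILMN_2768755) and 7.86 to 8.73 for Hdac9 (ILMN_1242553). Hdac6 (ILMN_2943818) ranged from 8.44 to 9.25, and Hdac11 (ILMN_2614912) from 11.02 to 11.75. Relative to the naive mean, the lowest group mean of any leading probe was -0.30, for Hdac5 on day 12 of heroin, and the highest was 0.36, for Hdac4 on day 1 of methamphetamine. Hdac4 had the widest span of group means, 0.63 from day 12 of heroin to day 1 of methamphetamine, against a median SD within groups of 0.13. For Hdac3 the span was 0.19 against a median SD within groups of 0.092.

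**Figure D1:**
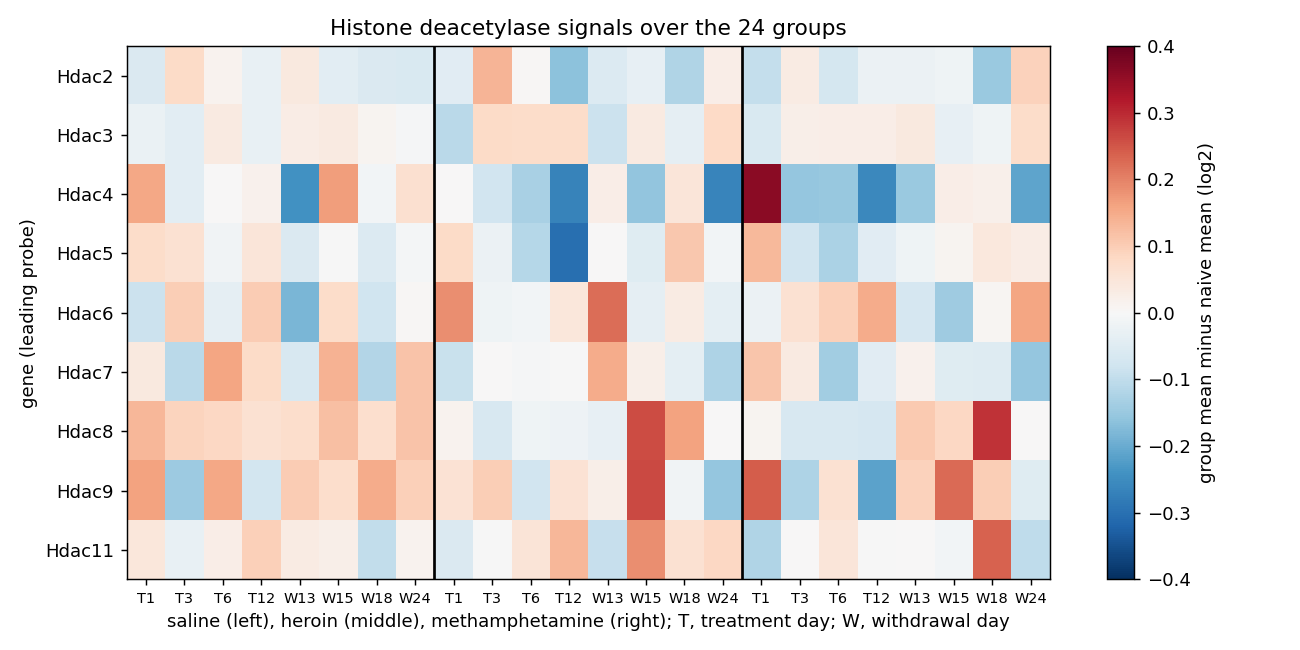
Group mean minus naive mean (log2, colour) of the leading probe of each of the 9 genes (rows) in the 24 groups (columns; T, treatment day; W, withdrawal day). The lowest cell is Hdac5 on day 12 of heroin, at -0.30, and the highest is Hdac4 on day 1 of methamphetamine, at 0.36.

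The 3 arrays of methamphetamine day 1 stand apart from the other 75 in hippocampal marker genes. A score over the 6 measured genes of a hippocampal marker list lay between 1.22 and 1.80 on them and was at most 0.31 on any other array, while the score over 7 measured markers of medium spiny neurons, the main striatal neurons, lay between -3.69 and -0.67 on them and between -0.829 and 0.285 on the others, so that this score overlapped. The score of the 4 measured markers of cortical excitatory neurons lay between 0.66 and 1.18 on these arrays and between -1.06 and 1.06 on the others, which also overlap. Medium spiny neuron markers such as Drd1 and Drd2 were above the array median on all arrays. In these bulk samples fewer cells of a type and less RNA per cell cannot be told apart. Results of methamphetamine treatment are therefore also given without day 1. The arrays lie on 13 slides of 6 from 2 chip lots, and the slide is a term in the model.

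The first question is whether the genes of this family changed while heroin was being given. Hdac5 read lower in heroin than in saline mice during treatment on each of its 3 probes, and 1 of the 3 passed the test. On ILMN_1213290, the dimmest of the 3, the difference was -0.17 ± 0.039 (SE; 95% interval -0.25 to -0.089; 12 arrays against 12), so the signal fell by 11.0%, with a limma p of 7.71e-05 and a p adjusted over all probes of 0.0281. The leading probe, ILMN_3112922, stood at -0.14 ± 0.038 (95% interval -0.21 to -0.061, a difference of -9.01%, adjusted p = 0.0986), and ILMN_2659160 at -0.11 ± 0.032 (95% interval -0.18 to -0.050, a difference of -7.58%, adjusted p = 0.105). In the same comparison 178 of 45281 probes passed, which is 0.393%, 67 of them lower (0.148%), and among leading probes of named genes 0.63% passed. The members' count is 1 of 20 probes, and 5 of the 20 had an unadjusted p under 0.05, as did 8.66% of all probes.

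The arrays behind the probe that passed were as follows. On day 1, ILMN_1213290 read 8.51, 8.47 and 8.74 in heroin and 8.82, 8.53 and 8.45 in saline mice. On day 3 the heroin arrays read 8.58, 8.53 and 8.50 and the saline arrays 8.46, 8.75 and 8.61. On both days the groups overlapped. On day 6 heroin read 8.43, 8.54 and 8.28 and saline 8.76, 8.58 and 8.69, so every heroin array was below every saline array. On day 12 heroin read 8.52, 8.45 and 8.11 and saline 8.50, 8.88 and 8.60, where the highest heroin array passed the lowest saline array. Naive mice ranged from 8.40 to 8.65 with a median of 8.61, which covers most of the heroin values and most of the saline values.

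The leading Hdac5 probe separated on another day. It read 12.14, 12.08 and 12.16 on day 1 of heroin against 12.11, 12.01 and 12.24 in saline, and 11.87, 11.92 and 12.28 on day 3 against 12.17, 12.00 and 12.16. On day 6 the values were 11.83, 11.98 and 12.00 in heroin and 12.04, 11.91 and 12.15 in saline. On day 12 the heroin arrays read 11.76, 11.72 and 11.76 and the saline arrays 12.24, 12.03 and 12.02. All 3 heroin arrays of day 12 were thus below all saline arrays of that day, and also below the lowest naive array at 11.88, while the other 3 days overlapped. The middle probe, ILMN_2659160, separated fully on 1 of the 4 days too, and on 2 of 4 in methamphetamine treatment. Full separation on a day was not particular to Hdac5. The leading Hdac9 probe, which did not pass, had all heroin arrays below saline on 1 treatment day and above on 2. The share over all probes was not counted.

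**Figure D2:**
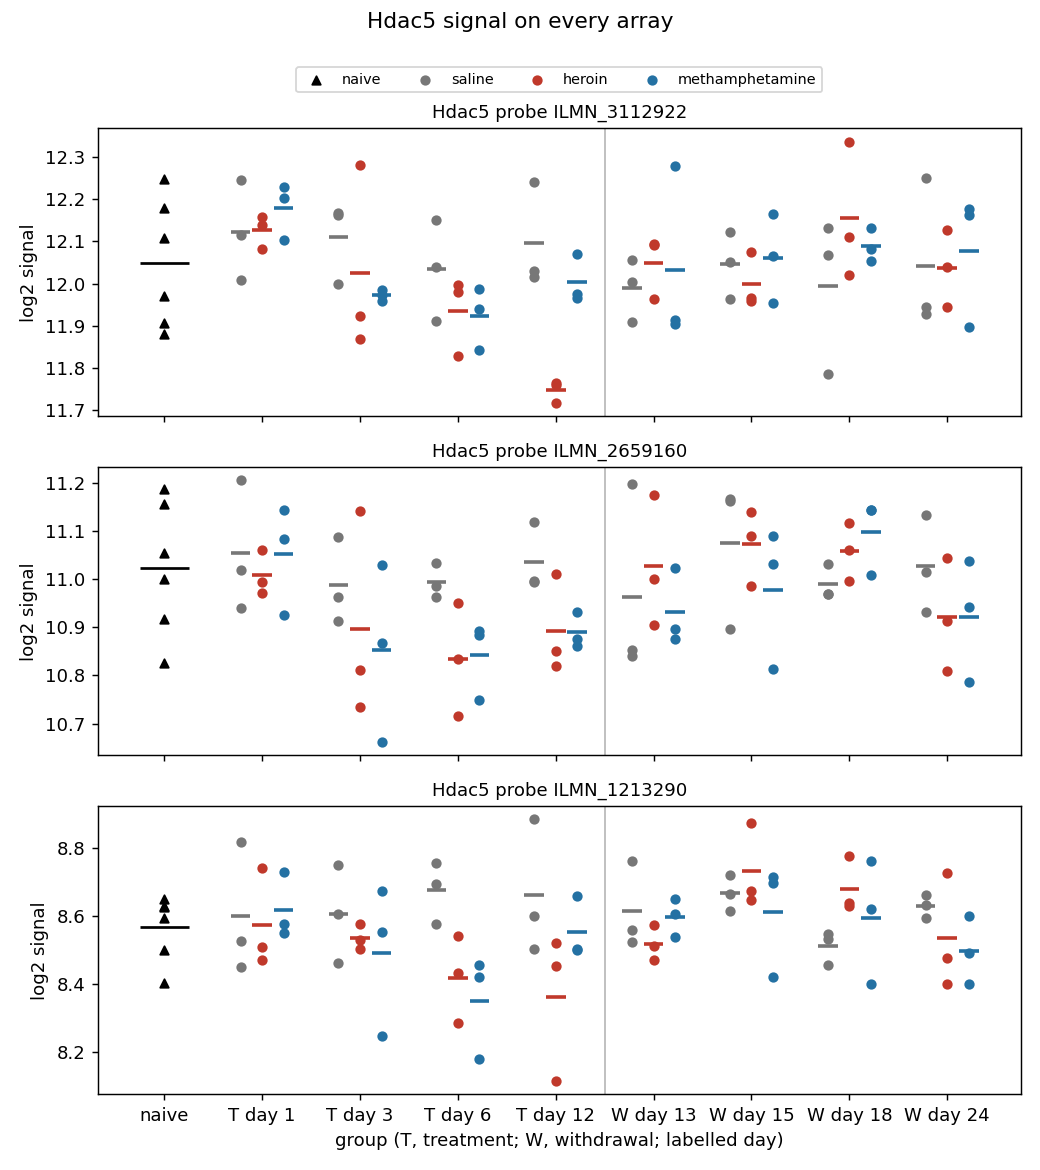
Hdac5 signal (log2, vertical axis) on every array for its 3 probes (panels), in naive mice and in saline, heroin and methamphetamine mice on each treatment (T) and withdrawal (W) day; points are arrays and bars are group means. On the leading probe the 3 heroin arrays of day 12 lie between 11.72 and 11.76, below all naive arrays.

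By day, the fitted difference of heroin from saline on the leading probe was 0.05 ± 0.098 (SE) on day 1, -0.17 ± 0.097 on day 3, -0.16 ± 0.090 on day 6 and -0.26 ± 0.097 on day 12. ILMN_1213290 had 0.09 ± 0.10, -0.16 ± 0.10, -0.29 ± 0.094 and -0.30 ± 0.10 on the same days, and ILMN_2659160 had 0.06 ± 0.082, -0.24 ± 0.082, -0.18 ± 0.076 and -0.10 ± 0.082. In this fit, which adjusts for slide, all 3 probes were above saline on day 1 and below it on days 3, 6 and 12. The sign on day 1 depends on that adjustment: by plain group means heroin was below saline on 4 of 4 days for ILMN_1213290 and for ILMN_2659160, and on 3 of 4 for the leading probe. No single day passed the test for any of them (lowest adjusted p = 0.419, day 12, ILMN_1213290). The difference between days did not pass either, with limma F-test p of 0.238 for the leading probe, 0.0991 for ILMN_2659160 and 0.0569 for ILMN_1213290, each 1 after adjustment. With day 1 left out of all 3 drug groups' means, and without the methamphetamine day 1 arrays, the change of ILMN_1213290 was -0.25 (adjusted p = 0.00657), that of the leading probe -0.19 (adjusted p = 0.0619) and that of ILMN_2659160 -0.17 (adjusted p = 0.062).

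**Figure D3:**
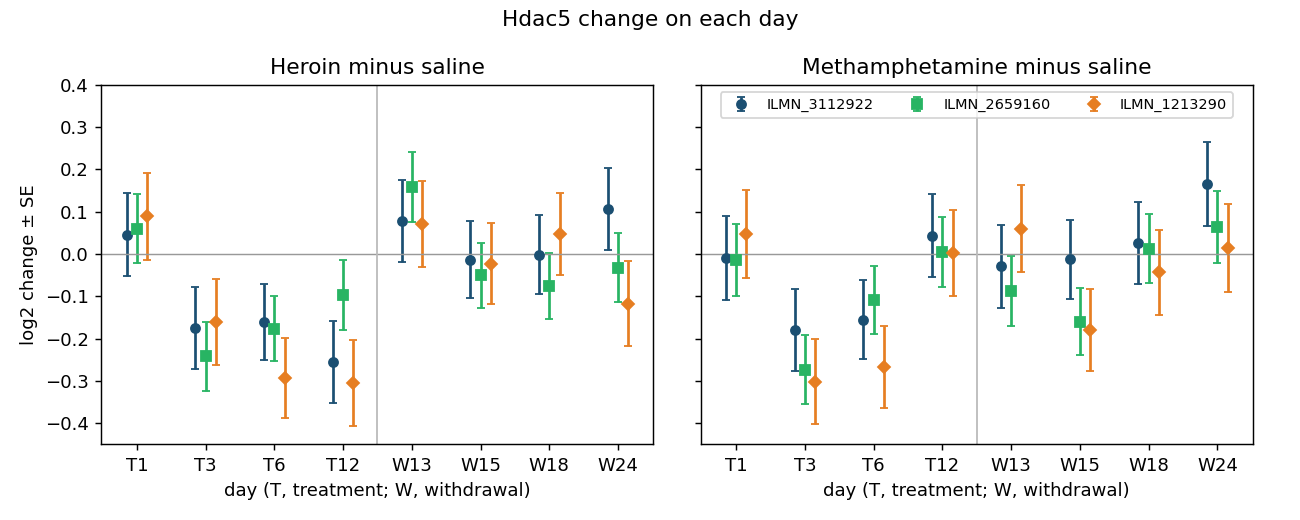
Fitted log2 difference from saline (vertical axis, ± SE, 3 arrays against 3) of the 3 Hdac5 probes on each treatment (T) and withdrawal (W) day, for heroin (left) and methamphetamine (right). In heroin the slide-adjusted values of the 3 probes lie above 0 on day 1 and below it on the 3 later treatment days, while plain group means of 2 probes are below saline on day 1 as well.

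The likeness of the 3 Hdac5 probes is given as a description. Over the 25 group means the correlation (Pearson) was 0.63, 0.66 and 0.77 for the 3 pairs. Over the 78 arrays it was 0.565, 0.274 and 0.617 for the same pairs. The 0.274 was between the leading probe and ILMN_1213290, the probe that passed. The probes share the same RNA and slides. The heroin difference was below 0 in both chip lots. It was -0.24 (3 arrays against 3) in the first lot and -0.14 (9 against 9) in the second for ILMN_1213290. The values were -0.15 and -0.13 for the leading probe, and -0.15 and -0.096 for ILMN_2659160. On the 11 slides that carried both heroin and saline treatment arrays, heroin was lower on 10, 8 and 8 of them for these probes. The lot and slide differences given here, for both drugs and all members, are of plain means and were not matched by day. Drug and day are thus mixed in them. Methamphetamine, for which no Hdac5 probe passed, was lower than saline on 10, 10 and 9 of 11 slides for the same probes in that order, with lot values of -0.178 and -0.117, -0.0778 and -0.0685, and -0.123 and -0.105. Leading probes of other members, none of which passed, were lower in heroin on 9 of 11 slides for Hdac8 and 8 for Hdac4 and Hdac7. The count was 7 for Hdac9, 6 for Hdac2, 4 for Hdac3 and Hdac11 and 3 for Hdac6. The share over all probes was not counted. An exact two-sided permutation of the heroin and saline labels within days gave p = 0.0246 for the leading probe (mean daily difference -0.13, 160000 arrangements). With slide terms taken out first it gave p = 0.00345, which is not exact, since those terms were estimated from the same arrays. Both p-values are for the leading probe alone, chosen with earlier results of these data known, and are not adjusted over probes. They are thus no independent support for the difference.

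The call on ILMN_1213290 was close to the threshold, and it was lost without any 1 of 11 of the 24 arrays. Its adjusted p was 0.127 without replicate 2 of saline day 12, 0.124 without replicate 3 of heroin day 12, 0.0904 without replicate 1 of heroin day 1, 0.0903 without replicate 2 of saline day 3 and 0.0752 without replicate 1 of saline day 1. Without the other 6 it was 0.072 and 0.0696 (replicates 2 and 3 of heroin day 3), 0.0712 (replicate 1 of heroin day 6), 0.0685 (replicate 1 of saline day 6), 0.0615 (replicate 2 of heroin day 1) and 0.0538 (replicate 3 of saline day 3). Over all 24 such fits its change stayed between -0.19 and -0.14. The call was also lost with median centring, with no slide term, with the slide as a random block, in the second lot alone and in a fit of the compared groups alone. Conversely the leading probe passed without replicate 3 of heroin day 6 (adjusted p = 0.0466), and ILMN_2659160 without replicate 3 of heroin day 3 (adjusted p = 0.043).

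No other member passed in heroin treatment, and the 3 Hdac5 probes had the 3 smallest p-values of the 20. Hdac4, the class IIa relative of Hdac5, had the largest estimate of any leading probe, -0.15 ± 0.053 (SE; 95% interval -0.25 to -0.039, adjusted p = 0.307). Its heroin and saline arrays did not overlap on 1 of the 4 treatment days. This was day 12, with 9.54, 9.51 and 9.50 in heroin and 9.72, 9.97 and 9.72 in saline mice. All drug arrays were also below all saline arrays on 2 heroin withdrawal days and on 1 day of each methamphetamine phase. The share over all probes was not counted. Over all 12 treatment arrays a side Hdac4 ranged from 9.50 to 10.02 (median 9.68) in heroin and from 9.57 to 10.06 (median 9.80) in saline. The groups thus overlapped widely over the phase. Hdac8, a class I enzyme that acts outside the large corepressor complexes, ranged from 7.66 to 8.00 (median 7.87) in heroin and from 7.75 to 8.18 (median 7.94) in saline mice, a difference of -0.11 ± 0.039 (adjusted p = 0.299). Its 3 other probes were between -0.018 and 0.014.

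The remaining leading probes were nearer to 0. Hdac7, a class IIa member, stood at -0.058 ± 0.062 and Hdac2 at -0.019 ± 0.033, while Hdac3 stood at 0.044 ± 0.037, Hdac6 at 0.038 ± 0.046, Hdac11 at 0.011 and Hdac9 at 0.0078. Of the 9 leading probes 5 were below 0, and the share over all leading probes is not given here. The median of the 9 was -0.0195, against 0.000745 over leading probes of named genes and -0.000153 over all probes. For Hdac2 the 95% interval was -0.085 to 0.046, and for Hdac3 -0.031 to 0.12.

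**Figure D4:**
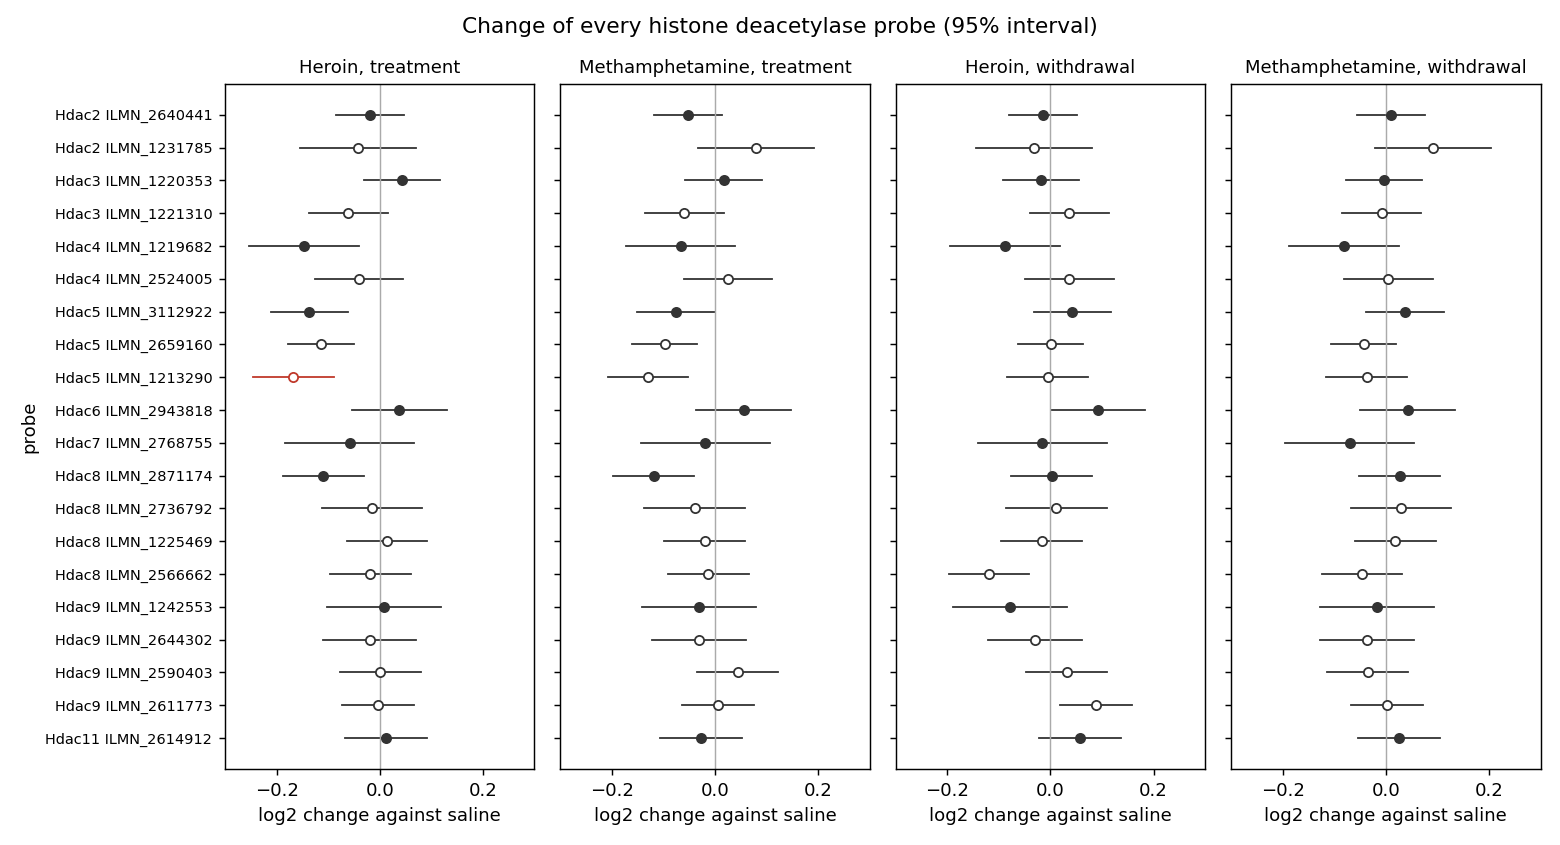
Log2 change against saline (horizontal axis, with 95% intervals) of the 20 histone deacetylase probes (rows) for heroin and methamphetamine in treatment and withdrawal; filled points are leading probes, and red marks an adjusted p under the threshold. The one red probe is Hdac5 ILMN_1213290 in heroin treatment, at -0.17.

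During methamphetamine treatment no member probe passed (0 of 20, with 4 at an unadjusted p under 0.05), while 575 of all probes did, which is 1.27%, and 1.84% of the leading probes of named genes. The estimates for Hdac5 were also below 0: -0.075 (adjusted p = 0.468) on the leading probe, -0.098 (adjusted p = 0.127) on ILMN_2659160 and -0.13 (adjusted p = 0.0866) on ILMN_1213290. On day 3 the leading probe read 11.99, 11.97 and 11.96, below the saline arrays of 12.17, 12.00 and 12.16, and on day 12 it read 11.97, 12.07 and 11.97, within reach of saline. Fitted day by day, ILMN_1213290 differed from saline by 0.05, -0.30, -0.27 and 0.0019 on days 1, 3, 6 and 12, so in the slide-adjusted fit the days below saline were 3 and 6, while its plain group means were below saline on 3 of the 4 days. Hdac8 had the largest estimate of a leading probe, -0.12 (adjusted p = 0.136). Its methamphetamine arrays ranged from 7.61 to 7.99 with a median of 7.83.

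Hdac4 on day 1 of methamphetamine read 10.11, 10.01 and 10.32, the highest group of all, against 10.00, 9.77 and 10.06 in saline mice of that day. Hdac11, the class IV member, was at its lowest group mean relative to naive on the same day, with 11.23, 11.20 and 11.26 against 11.51, 11.40 and 11.27 in saline. These are the arrays on which hippocampal and cortical markers were high and medium spiny neuron markers low, and the part of that in the Hdac4 and Hdac11 values was not tested. Without day 1, methamphetamine treatment differed from saline by -0.12 for Hdac4 (adjusted p = 0.814), -0.093 for the leading Hdac5 probe (adjusted p = 0.787), -0.12 for Hdac8 (adjusted p = 0.669) and 0.086 for Hdac6 (adjusted p = 0.889), and again no member probe passed, with 35 probes of the whole array passing. Leaving out only replicate 2 of methamphetamine day 1 brought 2 member probes past the threshold, Hdac5 ILMN_1213290 (-0.15, adjusted p = 0.0191) and Hdac8 ILMN_2871174 (-0.14, adjusted p = 0.0338). In that fit 1079 of the 45281 probes of the array passed, against 575 with no array left out. 

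Whether heroin and methamphetamine differed from each other was tested directly. In treatment, methamphetamine minus heroin was 0.061 (95% interval -0.014 to 0.14) on the leading Hdac5 probe, 0.016 (-0.047 to 0.080) on ILMN_2659160 and 0.037 (-0.041 to 0.12) on ILMN_1213290. None of the 20 member probes passed (1 at an unadjusted p under 0.05), where 1.06% of all probes passed. A difference between the drugs was thus not shown, nor was its absence. Both comparisons with saline use the same 12 saline arrays, so their estimates are not independent of each other.

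In withdrawal no member probe passed for either drug. For heroin, 3 of 20 had an unadjusted p under 0.05 and 0.0199% of all probes passed. For methamphetamine, 0 of 20 had an unadjusted p under 0.05 and 0.011% of all probes passed. Hdac5 in heroin withdrawal was 0.043 (95% interval -0.033 to 0.12) on the leading probe, 0.00024 on ILMN_2659160 and -0.0054 on ILMN_1213290, so the 3 estimates lay around 0. On the leading probe the 12 heroin withdrawal arrays ranged from 11.95 to 12.34 (median 12.06), the 12 saline withdrawal arrays from 11.79 to 12.25 (median 12.03). The groups overlapped. In methamphetamine withdrawal the 3 probes stood at 0.037, -0.043 and -0.037.

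The difference between the phases was tested on its own. The heroin effect in treatment minus that in withdrawal was -0.18 ± 0.053 (SE) on the leading Hdac5 probe (adjusted p = 0.365), -0.11 ± 0.045 on ILMN_2659160 (adjusted p = 0.556) and -0.16 ± 0.055 on ILMN_1213290 (adjusted p = 0.467). No member probe passed this test, and 0.011% of all probes did, with 4 of the 20 member probes at an unadjusted p under 0.05. For methamphetamine the same contrast was -0.11 on the leading Hdac5 probe (adjusted p = 0.575) and -0.15 on Hdac8 (adjusted p = 0.389). There too no member probe passed, against 0.115% of all probes, and 2 of 20 had an unadjusted p under 0.05.

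Other members in withdrawal gave small estimates. Hdac6, the tubulin deacetylase, stood at 0.092 in heroin withdrawal (95% interval 0.00033 to 0.18, adjusted p = 0.646), with heroin arrays from 8.56 to 9.25 and saline arrays from 8.44 to 9.04. The smallest p in heroin withdrawal belonged to a dim Hdac8 probe, ILMN_2566662 (-0.12, adjusted p = 0.397), which was above the array median on 1 array. The leading Hdac8 probe stood at 0.0024 in the same comparison, so these probes of one gene did not go together. Hdac4 stood at -0.088 in heroin and -0.081 in methamphetamine withdrawal (adjusted p = 0.735 and 0.955). Between the drugs, 0 of 20 passed (2 at an unadjusted p under 0.05) and 0.00221% of all probes passed.

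Injection and handling were examined in saline against naive mice. No member probe passed in treatment or in withdrawal, and 0 of 20 in each had an unadjusted p under 0.05, while 0.00442% and 0.0552% of all probes passed. The leading Hdac5 probe stood at 0.0033 (95% interval -0.092 to 0.099) for treatment and at -0.058 (-0.15 to 0.038) for withdrawal. The naive arrays of this probe read 11.91, 12.18, 12.25, 12.11, 11.97 and 11.88. This is a spread of single arrays, which cannot be set against the heroin difference between means.

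Over the 25 group means, the genes whose pattern was most like the leading Hdac5 probe, by Pearson correlation among 9842 genes with a leading probe above the median on all arrays, were Sh3rf3 (0.82), Tubd1 (0.79), Hook3 (0.78), Enox1 (0.78) and Celf1 (0.78). Of the other members, Hdac4 was the nearest at 0.65, which ranked 59 of these genes, and Hdac8 followed at 0.34. Hdac3 (-0.63) and Hdac11 (-0.30) ran the opposite way, and Hdac2, Hdac6, Hdac7 and Hdac9 were between 0.064 and 0.096. These correlations are descriptions over group means that share slides, saline arrays and the tissue content of each dissection.

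The genes that work with the deacetylases were taken from lists, chosen with earlier results of these data known. Of 25 genes encoding partners of class I enzymes, 22 had a probe, and 1 was higher in each drug during treatment with none lower. It was Sap30, a subunit of the Sin3 complex, at 0.17 ± 0.041 in heroin (adjusted p = 0.0478) and 0.31 ± 0.041 in methamphetamine (adjusted p = 1.62e-06). Its signal ranged from 9.41 to 9.67 (median 9.55) in saline treatment, from 9.52 to 9.83 (median 9.71) in heroin treatment and from 9.54 to 9.85 (median 9.77) on the 9 methamphetamine arrays of days 3, 6 and 12. On the 3 methamphetamine day 1 arrays it was 9.97, 10.04 and 10.32. Without day 1 the heroin estimate was 0.20 (adjusted p = 0.10) and the methamphetamine estimate 0.26 (adjusted p = 0.0292). The list's median was 0.0084 in heroin and -0.016 in methamphetamine treatment, beside 0.00075 and 0.00066 over leading probes of named genes. Sin3b, the scaffold of a Sin3 complex, stood at -0.10 in heroin (adjusted p = 0.235) and Tbl1xr1, of the NCoR complex, at 0.12 in methamphetamine (adjusted p = 0.102).

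Of a list of 25 MEF2 factors, kinases and 14-3-3 genes that work with class IIa enzymes, which also holds the activity- or MEF2-linked transcription factor genes Nr4a1, Npas4 and Klf2, 24 had a probe and 0 passed in either drug's treatment. The nearest were Ywhab, a 14-3-3 protein, at 0.10 (adjusted p = 0.224) and Camk2a, a calcium-dependent kinase of neurons, at 0.18 (adjusted p = 0.239), both in methamphetamine. In heroin the smallest p was that of Prkd3, a protein kinase D, at -0.11 (adjusted p = 0.289). The medians of the list were -0.0043 in heroin and 0.0046 in methamphetamine. The other 8 deacetylases measured, Hdac10 and the NAD-dependent sirtuins, had 0 calls and medians of 0.014 and 0.038. Of 16 acetyltransferases and acetyl-lysine readers 15 had a probe, again with 0 calls, and Kat5, an acetyltransferase, stood at -0.096 in methamphetamine (adjusted p = 0.136) and Brd2, a bromodomain reader, at 0.091 (adjusted p = 0.196).

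Markers of cell types were set beside these results. In heroin treatment 0 of 7 medium spiny neuron markers, 0 of 4 cortical, 0 of 4 oligodendrocyte, 0 of 5 microglial, 0 of 4 choroid plexus and 0 of 3 blood markers passed, while 2 of 6 hippocampal markers were higher (Spink8 by 0.61 and Wfs1 by 0.31) and 1 of 6 astrocyte markers was lower (Aqp4, -0.23). In methamphetamine treatment 4 of 6 hippocampal markers (C1ql2, Spink8, Prox1 and Lct) and 3 of 6 astrocyte markers (Gfap, Aldoc and Slc1a2) were higher, and 1 of 7 medium spiny neuron markers was lower (Pde10a, -0.40). Without the methamphetamine day 1 arrays, a count chosen after seeing the data, 1 of 6 hippocampal markers (Spink8, 0.54) and 2 of 6 astrocyte markers (Gfap, 0.59, and Slc1a2, 0.27) were higher in methamphetamine and 0 of 7 medium spiny neuron markers passed, and in heroin Spink8 (0.67) was the 1 marker of all lists that passed. Lct was above the array median on 4 of 78 arrays. The hippocampal marker Tdo2 and the cortical marker Neurod6 were above the array median on 0 of 78 arrays. The median of the medium spiny neuron score was -0.027 in heroin and 0.029 in saline treatment, with ranges of -0.12 to 0.17 and -0.20 to 0.19, so the groups overlapped. The 3 blood markers read higher in heroin than in saline treatment without passing, Hba-a1 by 0.27 (adjusted p = 0.471), Hbb-bt by 0.25 (adjusted p = 0.464) and Alas2 by 0.29 (adjusted p = 0.322). The median of their score was 0.43 in heroin and -0.050 in saline treatment, with overlapping ranges of -0.42 to 1.09 and -0.52 to 0.87. The part of blood and of tissue content in the Hdac5 difference was not tested.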

How the data were processed

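The deposited signal table holds one intensity per probe and array, and the deposited values show no normalization between arrays, since array medians lay between 95.1 and 184 (per the file headers and the values, with no background step named). A second deposited table holds the authors' log2 values, with array medians between 6.936 and 6.948; its processing is not given in the sources used here, and its spread within groups was 0.156 times that of the signals, so it served only as an alternative. Labels record Trizol RNA, biotinylated cRNA and a quality check of RNA.

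Signals were quantile-normalized and log2-transformed. Probes were named by the platform annotation: 34885 had 1 symbol, 18 several and 10378 none, and updating through Entrez changed 0 symbols. limma 3.58.1 in R 4.3.3 fitted 25 group means and 13 slides (41 residual degrees of freedom) on all 45281 probes, with Benjamini-Hochberg adjustment over all of them and a threshold of 0.05. A phase contrast is the mean of its 4 days. Named genes were all probes of the members, up to 4 genes per list with the smallest p in treatment, and the 5 genes most like Hdac5. The members and lists were chosen with earlier results of these data known. A marker score is the mean difference of a list's probes from their medians. The fit was tested on simulated data. Alternatives covered the deposited values, background correction, normalization, a filter leaving 23810 probes, slide handling, lots, the replicate number, the groups fitted, variance estimation, and leaving out arrays.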

Additional observations from a re-analysis of the deposited data

Results flagged for a closer look

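Of the 20 member probes, each checked in the naive group of 6 arrays, 1 had an array far from the others. On the dimmer Hdac2 probe, ILMN_1231785, naive replicate 4 read 8.96, while the nearest naive array read 8.45 and the lowest 8.14. That gap is 0.629 of the group's range, just above the critical value of 0.625. Chance flags about 1 in 20 groups checked this way, and 20 probes were checked. The leading Hdac2 probe, ILMN_2640441, had no such array.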

How the results depend on the processing

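For the mean over the treatment days, the heroin difference of each Hdac5 probe stayed below 0 under the alternatives run; single days were not recomputed, and the sign on day 1 depends on the slide term for 2 of the 3 probes. The other leading-probe results, 689 values over 13 alternatives, stayed on the same side of the threshold. These values do not include the fits that left out each array in turn. In such a fit, without replicate 2 of methamphetamine day 1, the leading Hdac8 probe passed in methamphetamine treatment (-0.14, adjusted p = 0.0338). The Hdac5 probe ILMN_1213290 lost its call with median centring (-0.15, adjusted p = 0.0816), no slide term (-0.16, adjusted p = 0.509), the slide as a random block (-0.16, adjusted p = 0.0759), the second lot alone (-0.13, adjusted p = 0.513) and only the groups compared (-0.19, adjusted p = 0.215), where the member count became 0, and it kept it under the other 7 settings. With the filter on dim probes ILMN_2659160 passed (-0.11, adjusted p = 0.0467), giving 2 member probes in heroin, and 1 in methamphetamine treatment. The share of all filtered probes that passed is not given here. With the filter and 1 probe a gene together the leading Hdac5 probe passed (-0.14, adjusted p = 0.038, against 0.0522 with the filter alone). Leaving out 1 array gave -0.19 to -0.14 for ILMN_1213290, -0.13 to -0.098 for ILMN_2659160, -0.16 to -0.12 for the leading probe, and 0 to 2 member probes past the threshold in heroin and 0 to 2 in methamphetamine treatment; the other member counts stayed at 0. The deposited log2 values gave -0.021 for the leading probe, on their narrower scale. In the permutation test they gave -0.020 (unadjusted p = 0.0193).

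Counts over all probes moved more. For heroin treatment (178) they were 34 with no slide term, 31 in the second lot and 53 with only the groups compared; for methamphetamine treatment (575), 57 with the deposited values, 152, 157 and 240 under those same 3 settings, and 35 without the day 1 arrays; for methamphetamine minus heroin in treatment (479), 4, 93, 86, 220 and 3 in the same order. For heroin withdrawal (9) they were 5 with normexp, 0 with no slide term, 2 with a random block, 0 in the second lot, 48 with only the groups compared, 20 without the day 1 arrays and 3 without 1 saline array of withdrawal day 15, an alternative chosen after seeing the data. For methamphetamine withdrawal (5) they were 3 with the filter and 1 probe a gene together, 1 with no slide term, 3 with a random block, 2 in the second lot, 13 with only the groups compared and 3 with robust variances; for the drugs in withdrawal (1), 0 with no slide term, 0 in the second lot, 4 with only the groups compared and 0 with robust variances. The cause was not tested. Leaving out 1 array gave 76 to 200, 318 to 1079, 234 to 1038, 2 to 35, 2 to 7 and 1 to 5 for these 6 counts in the order above.

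A replicate block on the labels' replicate numbers changed no member call. With it ILMN_1213290 stood at -0.18 (adjusted p = 0.0107) and 217 probes passed in heroin treatment, against 178 without it. Same-numbered arrays deviated together with r above 0.1 in 22 of 48 pairs (median 0.062, range -0.494 to 0.65). So wide a range cannot decide whether the numbers pair arrays. Dim probes, 4 of the 20 below the median on every array, limit what can be said of 1 probe of Hdac3, 1 of Hdac4 and 2 of Hdac9.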
